A study of Mus musculus with 9 samples.

Results

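Fgf5, Otx2, Pou3f1, Zic2 and Sox1 are genes of the primed epiblast and of early neural tissue. They were picked by name, and all 5 were found among the 13499 genes of the authors' table. RNA had been sequenced from mouse embryonic stem (ES) cells sorted by flow cytometry for their level of Myc, a transcription factor that drives growth. The 3 sorted populations were named High, Medium and Low, with 3 biological replicates each. All were C57BL/6 ES cells grown on gelatine in a medium with LIF (named 2xLIF SR-ES), the cytokine that keeps mouse ES cells undifferentiated. The sort used either a GFP-Myc fusion or EYFP as the reporter, and the labels do not say which reporter served which library, nor how many ES cell clones were used. No treatment, deletion or time course separated the populations. The comparison asked how RNA levels differ with Myc level, here for 5 genes of the primed epiblast and of early neural tissue.

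Mouse ES cells resemble the naive epiblast, the cells of the early embryo that form all its tissues. On leaving that state they pass through a formative and then a primed state, in which naive factors are lost and Otx2, Pou3f1 and Fgf5 are induced, while Zic2 is present in both states. FGF signalling through ERK promotes this exit, and OTX2 and POU3F1 (also called OCT6) act on enhancers of the primed state. Sox1 is one of the earliest genes switched on in neural ectoderm, and in ES cell cultures its RNA is used as a sign of neural commitment.

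The deposited values, called signal here, are read counts that the authors normalized to nearly the scale of CPM, on which every library has the same total. Libraries held between 11114936 and 16755566 reads, as recovered from the steps in the table. Myc itself followed the sort, with a signal of 106 ± 5.71 in High, 67.1 ± 2.54 in Medium and 26.0 ± 1.75 in Low (SD, n = 3 each). The markers of ES cells were abundant in all populations. Pou5f1, the core pluripotency factor OCT4, averaged 1515 in High and 1134 in Low, a difference that was not called (limma, adjusted p under 0.05 required). The summed signal of 11 ES cell markers was 6341 to 7131 in High, 6052 to 6700 in Medium and 5282 to 7004 in Low. Of these 11, 4 passed as higher in High than in Low and 0 as lower, where 13.8% and 14.6% of all genes did. The counts were 2 and 2 under quantile normalization and 5 and 1 with DESeq2. They were 6 and 1 with a correction for transcript length, and 6 and 2 with the replicate number as a block. Libraries differed in a trend with transcript length: genes of at least 4730 nt deviated from genes of at most 2100 nt by a median of −0.07 to 0.25 (log2) in High, −0.05 to 0.30 in Medium and −0.59 to 0.28 in Low. Results with that trend removed are given where they change a call of any of the 5 genes, and for some gene lists. Because these are bulk samples, fewer cells that express a gene and less of its RNA in each cell cannot be told apart. The signal is also relative to the total of the library, so amounts of RNA per cell were not measured.

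Sequences from RefSeq (GRCm38.p6) are shown for the promoters of the members with the steepest differences, since MYC binds DNA at the E-box CACGTG. The stretches of Fgf5 and Otx2 are the 250 bases before a start annotated by RefSeq, with every CANNTG, the general E-box form, in capitals.
Fgf5, chr5:98253934-98254183, plus strand: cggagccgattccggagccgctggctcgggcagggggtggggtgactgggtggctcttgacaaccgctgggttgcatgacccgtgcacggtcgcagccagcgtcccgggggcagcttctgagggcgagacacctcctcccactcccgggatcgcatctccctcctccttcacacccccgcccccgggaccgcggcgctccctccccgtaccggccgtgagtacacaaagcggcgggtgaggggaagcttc
Otx2, chr14:48667645-48667894, minus strand, before the most upstream of 4 starts in the RefSeq promoter table, inside the GENCODE span of the gene: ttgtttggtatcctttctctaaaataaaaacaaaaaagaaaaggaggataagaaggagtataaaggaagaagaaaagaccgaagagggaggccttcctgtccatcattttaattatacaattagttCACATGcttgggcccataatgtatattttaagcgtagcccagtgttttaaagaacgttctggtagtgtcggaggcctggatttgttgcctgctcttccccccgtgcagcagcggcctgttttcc
Sox1, chr8:12395529-12395552, plus strand, in the 5′ untranslated region, with the octamer in capitals: agcgcgccATGCAAATcaccgccg

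The Fgf5 stretch held no CANNTG and 70.8% of its bases were G or C. The Otx2 stretch held 1 CANNTG, and 42% of its bases were G or C. Among 32851 RefSeq promoter stretches of the same length, 66.2% held a CANNTG and 6.02% held CACGTG, which is itself a CANNTG, counted on both strands. CACGTG was found in none of the 6 annotated promoter windows of Fgf5, Otx2 and Sox1, which run slightly past the start, and in 7.15% of all such windows. Of the 6, 4 belong to Otx2 and partly overlap. In 300-base windows of that kind, the octamer ATGCAAAT, the sequence read by POU factors such as POU5F1 and POU3F1, was found in the window of Sox1 alone among these 3 genes, and in 1.74% of all windows. TAATCC, the motif read by OTX proteins, was found in 1 of the 4 windows of Otx2, and in 7.06% of all windows. A match describes these letters only.

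The 5 genes did not move as a block. Fgf5, Otx2 and Pou3f1 were lower in High than in Low, Sox1 was higher, and Zic2 did not pass the test between the ends and had its highest signal in Medium. Between High and Low, 4 of 5 members passed (limma, Benjamini-Hochberg adjusted p under 0.05), where 28.4% of all genes passed. Of these members 1 was higher in High, against 13.8% of all genes, and 3 were lower, against 14.6%. In 4 of 5 the 3 populations were strictly ordered with no overlap between libraries, an order met by 9.87% of all genes. In 1 member High stood above Medium and Medium above Low (4.66% of all genes), and in 3 the order ran the other way (5.22%).

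**Figure D1:**
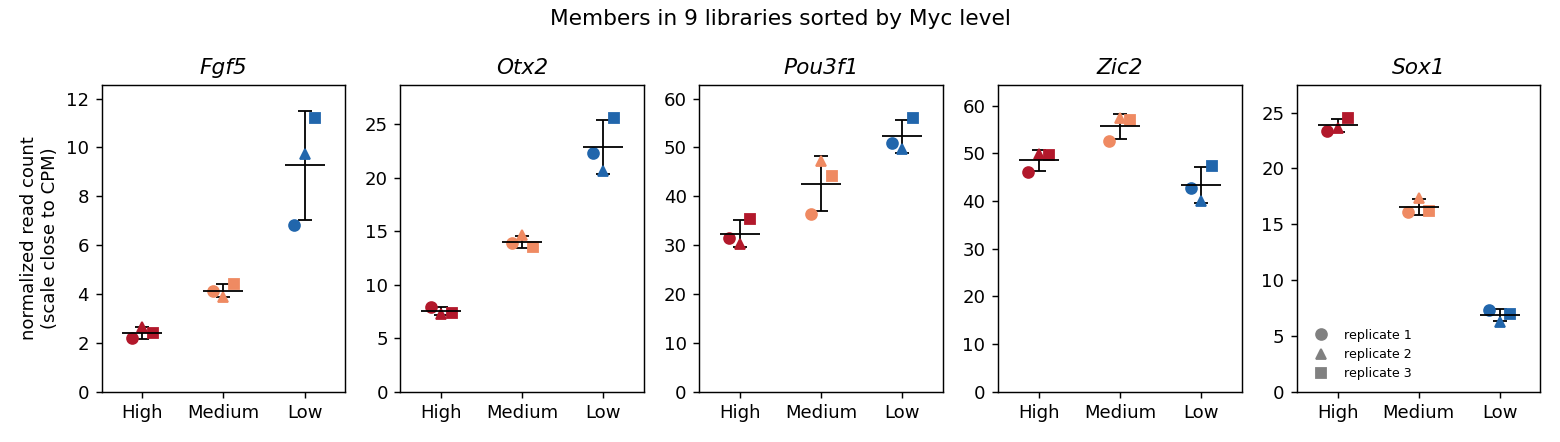
Normalized read counts (vertical axis, scale close to CPM, from 0) of the 5 members in the High, Medium and Low populations. Points are libraries, horizontal bars the mean and whiskers the SD of 3 replicates. Fgf5, Otx2 and Pou3f1 are lowest in High, Sox1 is highest in High, and all 3 Medium libraries of Zic2 lie above the other 6.

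Fgf5 encodes a secreted fibroblast growth factor and is the classical marker of the primed epiblast. It lies on chr5:98254184-98277030 on the plus strand (GRCm38, ENSMUSG00000029337). Its signal was 2.18, 2.67 and 2.41 in High, 4.12, 3.87 and 4.40 in Medium, and 6.83, 9.75 and 11.2 in Low, replicates in order. No library of a population overlapped one of another, and the Low libraries were the most spread, with a coefficient of variation of 24.1% against 10.1% in High and 6.54% in Medium. These values rest on few reads, 30 to 33 in each High library, 43 to 69 in Medium and 97 to 141 in Low. The exact Poisson 95% interval, which covers counting error only, ran at most from 1.5 to 3.81 across the High libraries and started no lower than 5.53 in Low. Across the Medium libraries it ran from 2.80 to 5.57, which overlaps the intervals of both other populations. Mean signal was 3.83-fold lower in High than in Low (2.42 ± 0.244 against 9.26 ± 2.23, SD, n = 3). The log2 fold change was −1.56 with a standard error of 0.17 (limma, adjusted p = 0.00016), on a log2(signal + pseudocount) scale that understates the change of low genes.

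Otx2 encodes a homeodomain factor that helps ES cells into the primed state and later patterns the forebrain. It lies on chr14:48657677-48673819 on the minus strand (ENSMUSG00000021848). Its signal was 7.92, 7.29 and 7.40 in High, 13.9, 14.7 and 13.5 in Medium, and 22.3, 20.7 and 25.6 in Low. The populations formed 3 separate groups, with the lowest Medium library well above the highest High library. Mean signal was 3.03-fold lower in High, at 7.54 ± 0.338 against 22.9 ± 2.52 in Low (SD, n = 3), with a log2 fold change of −1.48 (standard error 0.10, limma, adjusted p = 1.7e-05).

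Pou3f1 encodes a POU factor of the primed epiblast and of neural precursors. It lies on chr4:124656807-124660655 on the plus strand (ENSMUSG00000090125). Its signal was 31.4, 30.1 and 35.4 in High, 36.3, 47.3 and 44.2 in Medium, and 50.9, 49.7 and 56.1 in Low. The populations again kept apart, but narrowly: the lowest Medium library was close to the highest High one, and Medium was the most spread of the 3 (coefficient of variation 13.3%). Mean signal was 1.62-fold lower in High than in Low (32.3 ± 2.75 against 52.2 ± 3.37, SD, n = 3), with a log2 fold change of −0.68 (standard error 0.11, limma, adjusted p = 0.002). The change was smaller than that of Otx2, whose 95% interval of −1.71 to −1.24 does not meet that of Pou3f1, −0.93 to −0.43.

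Zic2 encodes a zinc finger factor that binds enhancers in ES cells and is needed for forebrain and neural tube formation. It lies on chr14:122475435-122479852 on the plus strand (ENSMUSG00000061524). Its signal was 46.0, 49.8 and 49.7 in High, 52.6, 57.4 and 56.9 in Medium, and 42.7, 40.0 and 47.4 in Low. High and Low overlapped, and all 3 Medium libraries lay above every other library. The High mean was 48.5 ± 2.16 and the Low mean 43.4 ± 3.75 (SD, n = 3), a log2 difference of 0.16 with a 95% interval of −0.03 to 0.36 (limma, adjusted p = 0.195). With the length trend removed the adjusted p was 0.046, so this difference lies close to the threshold.

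Sox1 encodes an SRY-related factor of the neural plate. It lies on chr8:12395295-12400126 on the plus strand (ENSMUSG00000096014). Its signal was 23.4, 23.6 and 24.5 in High, 16.1, 17.3 and 16.2 in Medium, and 7.32, 6.26 and 7.0 in Low. The order was the reverse of that of Fgf5, Otx2 and Pou3f1, and the replicates lay closer together than for any other member in High, where the coefficient of variation was 2.56%. Mean signal was higher in High by 3.48-fold, at 23.9 ± 0.61 against 6.86 ± 0.542 in Low (SD, n = 3), with a log2 fold change of 1.67 (standard error 0.09, limma, adjusted p = 5.1e-06). Sox1 overlaps Sox1ot and Gm25239 on the same strand, Otx2 overlaps Gm49154 on the same strand and Otx2os1 on the opposite one, and Pou3f1 overlaps Gm2164 on the opposite strand (GENCODE M21). None of these partners was analysed here, and whether the authors' counting used strand is not given in the sources used here, so reads of the partners cannot be told apart from those of the members.

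**Figure D2:**
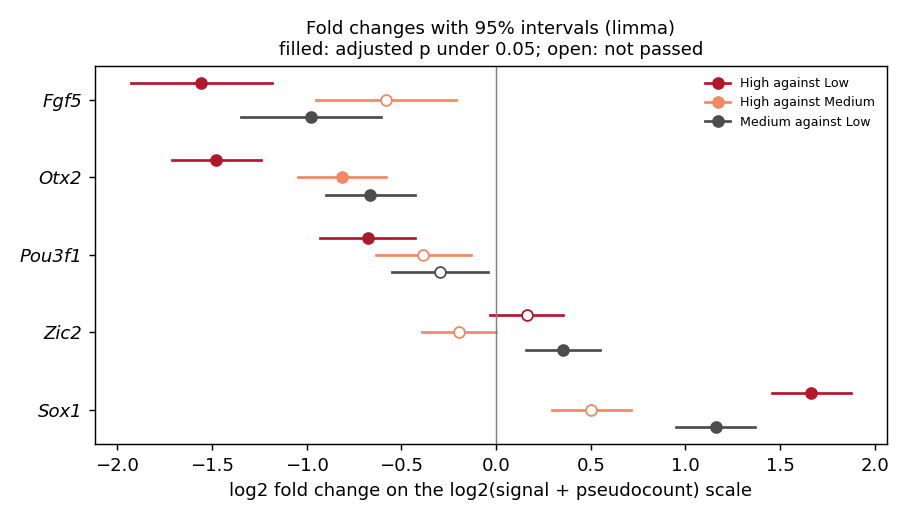
Log2 fold changes of the 5 members (horizontal axis) with limma's 95% intervals for High against Low, High against Medium and Medium against Low. Filled points passed at an adjusted p under 0.05 and open points did not. Fgf5, Otx2 and Pou3f1 lie left of 0 in all 3 comparisons, Sox1 right of it, and Zic2 changes side.

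The smaller step, High against Medium, gave few calls anywhere in the table: 0.407% of all genes passed, 0.0815% higher and 0.326% lower in High, and 1 of 5 members. Otx2 was that member, 1.86-fold lower in High than in Medium (7.54 ± 0.338 against 14.0 ± 0.572, SD, n = 3), with a log2 fold change of −0.81 (limma, adjusted p = 0.0129). The call was lost when any one High or Medium library was left out, with adjusted p up to 0.0882. Sox1 was 1.44-fold higher in High than in Medium with an adjusted p of 0.0558, just past the threshold, and a 95% interval of 0.30 to 0.71 for the log2 difference. Fgf5 had a log2 difference of −0.58 (adjusted p = 0.195), Pou3f1 of −0.38 (adjusted p = 0.206) and Zic2 of −0.19 (adjusted p = 0.464, limma). The High and Medium libraries did not overlap in any of the 5 members, which was so for 20.1% of all genes.

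Between Medium and Low, 12% of all genes passed and 4 of 5 members did, 2 higher in Medium (6.14% of all genes) and 2 lower (5.87%). Sox1 was 2.41-fold higher in Medium than in Low, with a log2 fold change of 1.16 (limma, adjusted p = 0.000187). Zic2 was 1.28-fold higher in Medium (55.6 ± 2.63 against 43.4 ± 3.75, SD, n = 3), with a log2 fold change of 0.36 (limma, adjusted p = 0.0301). This call was lost without any one Medium library, High replicate 2 or 3, or Low replicate 2, with adjusted p up to 0.109, and with the fit limited to Medium and Low (0.0888). Fgf5 was 2.24-fold lower in Medium than in Low (limma, adjusted p = 0.00679) and Otx2 1.63-fold lower (adjusted p = 0.00493). Pou3f1 had a log2 difference of −0.30 that did not pass (adjusted p = 0.112), with a 95% interval of −0.55 to −0.04. Medium and Low libraries did not overlap in any of the 5 members, against 29.6% of all genes.

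Whether Medium lay midway on the log2 scale was tested as the difference between Medium and the average of the other populations. Sox1 in Medium was 0.33 above that mean and Zic2 0.27 above it, with unadjusted limma p of 0.00235 and 0.00477 and an adjusted p of 0.709 for both. Otx2 (0.08), Pou3f1 (0.04) and Fgf5 (−0.20) had adjusted p of 0.761, 0.868 and 0.71. No gene in the table passed this test with limma (0% called), 766 had an unadjusted p under 0.05, and edgeR called 0 and DESeq2 21 genes on the recovered reads. Without Low replicate 1, limma called 70 genes.

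Per kilobase of longest annotated transcript, the order of the members by mean signal in High was Zic2 (19.9), Pou3f1 (8.39), Sox1 (4.94), Otx2 (2.91) and Fgf5 (0.968). In Low it was Zic2 (17.8), Pou3f1 (13.6), Otx2 (8.82), Fgf5 (3.70) and Sox1 (1.42), so Sox1 stood above Otx2 and Fgf5 in High and last in Low. In each population, neighbours in the order lay further apart than the sum of their SDs. In Medium the order was that of Low except for Sox1 and Fgf5, with Zic2 at 22.8, Pou3f1 at 11.1, Otx2 at 5.41, Sox1 at 3.42 and Fgf5 at 1.65 signal per kilobase. Zic2 and Pou3f1 stand at percentiles 68.0 and 64.7 of all genes by mean signal, Sox1 and Otx2 at 41.3 and 40.3, and Fgf5 at 23.5.

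Relatives of the members also moved in both directions. Of 24 genes listed for the Zic, POU3, SOXB1, OTX and FGF families, 17 were measured. Among the 12 that are not members, 4 were higher in High than in Low and 3 were lower. Over all genes 13.8% were higher and 14.6% lower, the shares to set beside every High against Low count of a list below. Zic5, which lies beside Zic2 in the genome, averaged 59.2 ± 4.18 in High and 52.3 ± 4.48 in Low (adjusted p = 0.271). Of the SOXB1 genes related to Sox1, Sox2, a core pluripotency factor, averaged 452 ± 9.31 in High and 475 ± 25.6 in Low (adjusted p = 0.51). Sox3, a marker of primed epiblast and neural plate, was low, at 2.07 ± 0.681 in High and 3.60 ± 0.864 in Low (log2 difference −0.58, limma, adjusted p = 0.0631). Sox3 was called with the replicate block (0.0311), with block and length correction (0.0434), with libraries scaled to equal totals (0.0490) and without Low replicate 1 (0.0204). The direction of its values was opposite to that of Sox1. Otx1, Crx, Zic1, Zic4, Pou3f2, Pou3f3 and Pou3f4 were not analysed here.

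The FGF ligands and receptors were split. Fgf15, like Fgf5 an epiblast ligand, was lower in High than in Low, with a signal of 0.924, 1.33 and 0.644 in High and 4.50, 5.72 and 7.87 in Low (log2 fold change −1.81, limma, adjusted p = 0.000522). Fgf8, a ligand of the epiblast and primitive streak, averaged 0.506 in High and 1.70 in Low (log2 fold change −0.83, adjusted p = 0.00686). Both are near the bottom of the measured range. The opposite direction was seen for Fgf4, the ligand by which ES cells drive their own ERK signalling, at 291 ± 19.2 in High and 169 ± 4.53 in Low (log2 fold change 0.77, limma, adjusted p = 0.000112), and for Fgf17, at 12.6 ± 0.413 in High and 3.49 ± 0.696 in Low (1.61, adjusted p = 0.000127). Among the receptors, Fgfr2 was 4.39-fold lower in High than in Low. Its signal was 14.8, 15.3 and 16.5 in High, 32.9, 32.8 and 34.0 in Medium, and 75.7, 58.9 and 69.8 in Low (log2 fold change −2.06, limma, adjusted p = 2.49e-06). Fgfr1, the main receptor of ES cells, averaged 96.9 ± 3.89 in High and 106 ± 16.2 in Low (adjusted p = 0.461). Fgfr4 was higher in High (2.5 against 1.41 in Low, adjusted p = 0.00725), and Fgfr3 was not called (adjusted p = 0.507).

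**Figure D3:**
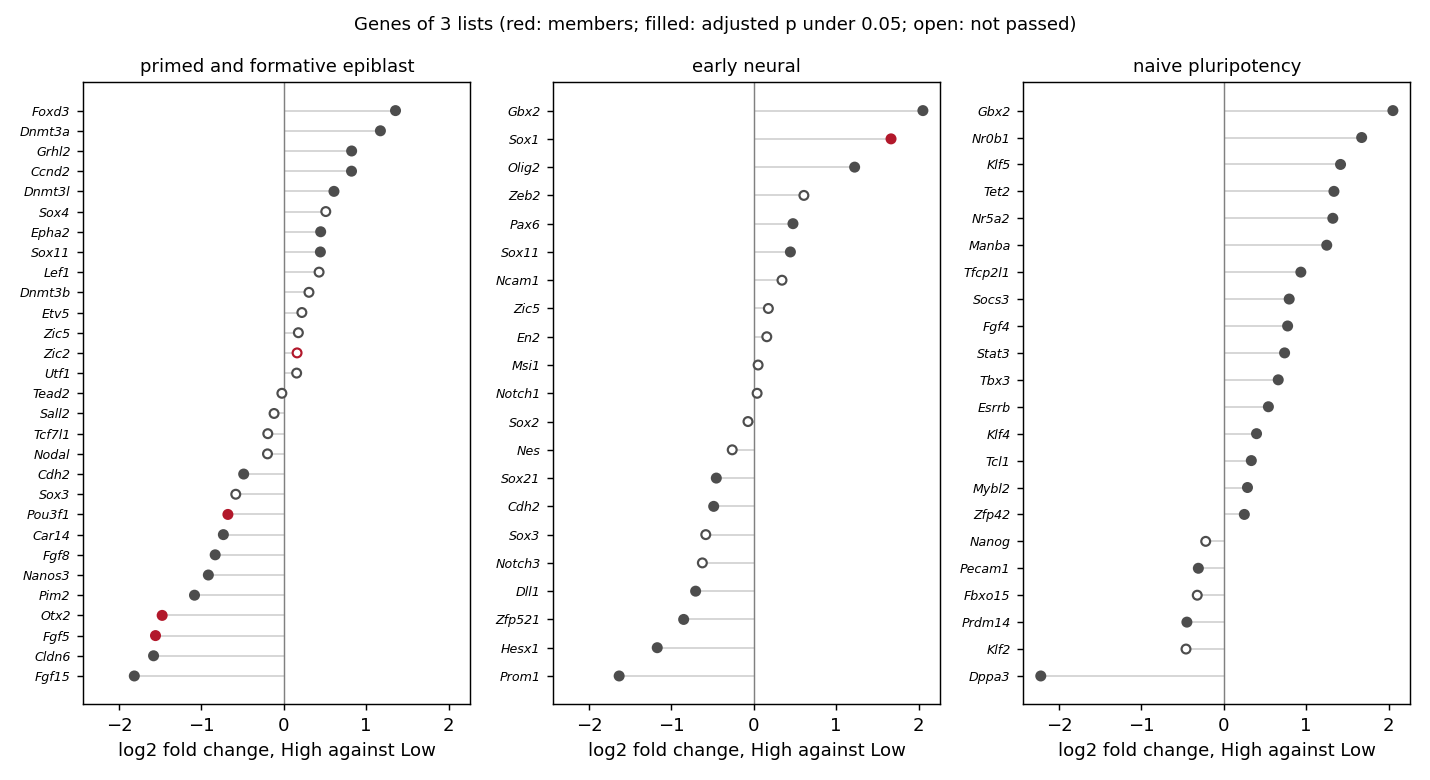
Log2 fold changes for High against Low (horizontal axis) of the measured genes of 3 lists. 1 gene of the primed list, higher in High, is counted but not drawn. Red points are members, filled points passed at an adjusted p under 0.05 and open points did not. The primed list (8 higher, 10 lower) and the early neural list (5 higher, 6 lower) spread to both sides, and 16 of 22 naive genes are higher in High.

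A wider list of primed and formative epiblast genes showed the same spread. All 30 were measured. Between High and Low 8 passed as higher in High and 10 as lower, and 12 were not called, with a median log2 fold change of 0.07 against 0.00 over all genes. Without the 4 members on it, 8 of 26 were higher and 7 lower. With the length trend removed 13 of the 30 were higher and 10 lower, and the median was within 0.001 of 0 under quantile normalization and without Low replicate 1. Cldn6, a tight junction gene of epiblast and early epithelia, followed Fgf5, with a mean of 35.9 ± 3.17 in High and 110 ± 19.5 in Low (log2 fold change −1.58, limma, adjusted p = 5.11e-05). On the other side, Dnmt3a, a de novo DNA methyltransferase, was 2.25-fold higher in High, at 495 ± 5.31 against 220 ± 24.4 in Low (adjusted p = 2.38e-05). Foxd3, a forkhead factor needed for the passage out of the naive state, averaged 54.6 ± 7.9 in High and 20.8 ± 3.7 in Low (1.36, limma, adjusted p = 0.000255). Genes of the primed state therefore stood on both sides of the comparison. High against Medium called 0 of the 30 higher and 1 lower, which was Otx2, and Medium against Low called 8 higher and 7 lower.

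Of 40 early neural genes, 21 were measured. Between High and Low 5 passed as higher in High and 6 as lower, and 10 were not called, with a median log2 fold change of 0.04. The median changed sign on the recovered reads (−0.07 with edgeR and with DESeq2) and without Low replicate 2 (−0.04). The counts were 8 higher and 6 lower without Low replicate 1, 5 and 3 under quantile normalization, and 4 and 7 with the length trend removed. Sox1 was second by size among those higher in High. The first was Gbx2, a homeobox gene of the anterior hindbrain and also a LIF-dependent gene of naive ES cells, which was 4.31-fold higher (83.5 ± 8.14 in High against 19.4 ± 1.76 in Low, log2 fold change 2.05, limma, adjusted p = 3.52e-06). Olig2, a basic helix-loop-helix factor of the ventral neural tube, was 2.40-fold higher (47.0 ± 0.543 in High against 19.6 ± 1.18 in Low, adjusted p = 1.08e-05). Prom1, which encodes the stem cell surface protein prominin, was lower, at 3.22 ± 0.569 in High and 12.1 ± 0.71 in Low (log2 fold change −1.63, limma, adjusted p = 3.95e-05). Hesx1, a homeobox repressor of the anterior neural plate, was lower as well, at 6.62 ± 1.04 in High and 16.3 ± 3.43 in Low (−1.17, adjusted p = 0.00078). The other 19 listed genes, among them Pax3 and Hes5, were not analysed here.

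Among 22 naive pluripotency genes, all measured, 16 passed as higher in High and 3 as lower, and 3 were not called, with a median log2 fold change of 0.60. With the replicate block 16 were higher and 6 lower, with the length trend removed 16 and 5, and under quantile normalization 12 and 6. Nr0b1, a nuclear receptor that partners OCT4, had a log2 fold change of 1.67 and Klf5, a Krüppel-like factor of naive cells, one of 1.42, while Dppa3 went the other way at −2.22. Sox1 therefore shared its direction with most of the naive genes, and Fgf5, Otx2 and Pou3f1 had the opposite one. Of 37 regulators of the exit from the naive state, 11 passed as higher in High and 2 as lower, and 24 were not called. The counts were 16 higher and 4 lower with the replicate block, 15 and 4 with the length trend removed, and 9 and 5 under quantile normalization. Etv4, an ETS factor induced by FGF signalling, was the one with the most positive fold change, at 130 ± 11.7 in High and 33.5 ± 4.21 in Low (1.93, limma, adjusted p = 6.91e-06). Fgfr2 had the most negative one.

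Markers of other cell types were read beside these results. The 10 measured neuron markers (Dcx and Rbfox3 not analysed here) summed to 300 to 344 in High, 270 to 307 in Medium and 213 to 270 in Low, with 2 higher, 2 lower and 6 not called. Both lower calls were lost without High replicate 1 or 2, and without Low replicate 2 or 3. The sum of 4 neural crest markers, which include Foxd3, was 69.7 to 81.2 in High, 53.3 to 62.4 in Medium and 29.2 to 34.4 in Low. The neural crest sum moved in the direction of Sox1, also without Foxd3, where the ranges of High and Medium overlapped. Between High and Low 2 of these markers were higher in High, 1 lower and 1 not called. Most of the sum without Foxd3 was Ngfr, at 18.7 ± 3.16 in High and 6.76 ± 1.64 in Low. Ets1, which was low, went against it, at 0.463 ± 0.0191 in High and 2.15 ± 0.774 in Low (limma, adjusted p = 0.00384). Sox10, Tfap2a, Tfap2b, Snai2, Pax3 and Msx1 were not analysed here. The neuron sum moved in the direction of Sox1 through Stmn2 alone, which averaged 216 ± 22.1 in High and 107 ± 20 in Low. Without it the other 9 neuron markers summed to 110 to 116 in High, 114 to 128 in Medium and 125 to 142 in Low. That order was the opposite one, with neighbouring ranges overlapping. Much of that sum was Tubb3, at 70.3 ± 1.38 in High and 87.0 ± 10.2 in Low. Gap43 went against it, at 7.09 ± 0.904 in High and 3.47 ± 0.698 in Low. The summed signal of the 7 measured primitive endoderm markers moved with Sox1, with or without Sparc, the most abundant of them. The sums were 520 to 540 in High, 425 to 437 in Medium and 262 to 274 in Low, with 5 higher and 1 lower, which was Dab2. Gata6, Gata4, Sox17, Pdgfra, Foxa2 and Hnf4a were not analysed here. The summed signal of the 11 measured trophoblast markers moved with Fgf5 and Otx2, with or without Tfap2c, the most abundant of them. They summed to 155 to 162 in High, 246 to 267 in Medium and 498 to 601 in Low, with 1 higher and 9 lower in High. Cdx2, Elf5 and Hand1 were not analysed here. The 9 feeder and fibroblast markers summed to 38.9 to 55.7 in High, 52.0 to 75.7 in Medium and 37.3 to 54.6 in Low, so High and Low overlapped. Between those populations 1 of them was higher in High, 0 lower and 8 not called. For the 5 measured primitive streak genes the sums were 9.38 to 13.5 in High, 11.6 to 13.6 in Medium and 10.8 to 14.7 in Low. In High against Low 1 was higher, 2 lower and 2 not called. No measured marker of these lists was at 0 in any library. All genes of the table had reached 1 CPM in 3 libraries, and listed genes outside it were not measured. The lack of 0 values therefore does not show that these cell types were present. The part of other cell types in the values of the members was not tested.

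Genes with a pattern like each member were found by the root mean square difference of centred log2 values over the 9 libraries, among 12180 named genes. This is a description, since the 9 libraries are shared by all genes. For Fgf5 the most alike were Cldn6 (0.112), Phlda3 (0.137) and Bag3 (0.142), where the median over all genes was 0.677. For Otx2 they were Pla2g4a (0.110), Prom1 (0.124) and Katnal2 (0.125), with a median of 0.629. Fgf5 and Otx2 differed from each other by 0.217, which made Otx2 the 58th gene in the order of likeness to Fgf5 and Fgf5 the 98th in the order for Otx2. Sox1 was near the far end of the order for Fgf5, at rank 12118. The genes most like Sox1 were Bmp2k (0.0648), H2-M5 (0.0833) and Irf2bpl (0.101), with a median of 0.720. For Pou3f1 they were Pidd1 (0.0873), Speg (0.0877) and Fndc5 (0.0883), and for Zic2 they were Ankrd6 (0.0638), Lpar1 (0.0723) and Ocln (0.0856). Both of these members vary little between libraries, and their medians over all genes, 0.342 and 0.258, are correspondingly small. Fndc5 and Katnal2 are low genes, whose change the pseudocount understates. Mean signal in High was 2.54-fold lower than in Low for Fndc5 and 4.34-fold lower for Katnal2. For Pou3f1 and Otx2, which they resemble on the log2 scale, it was 1.62-fold and 3.03-fold lower.

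**Figure D4:**
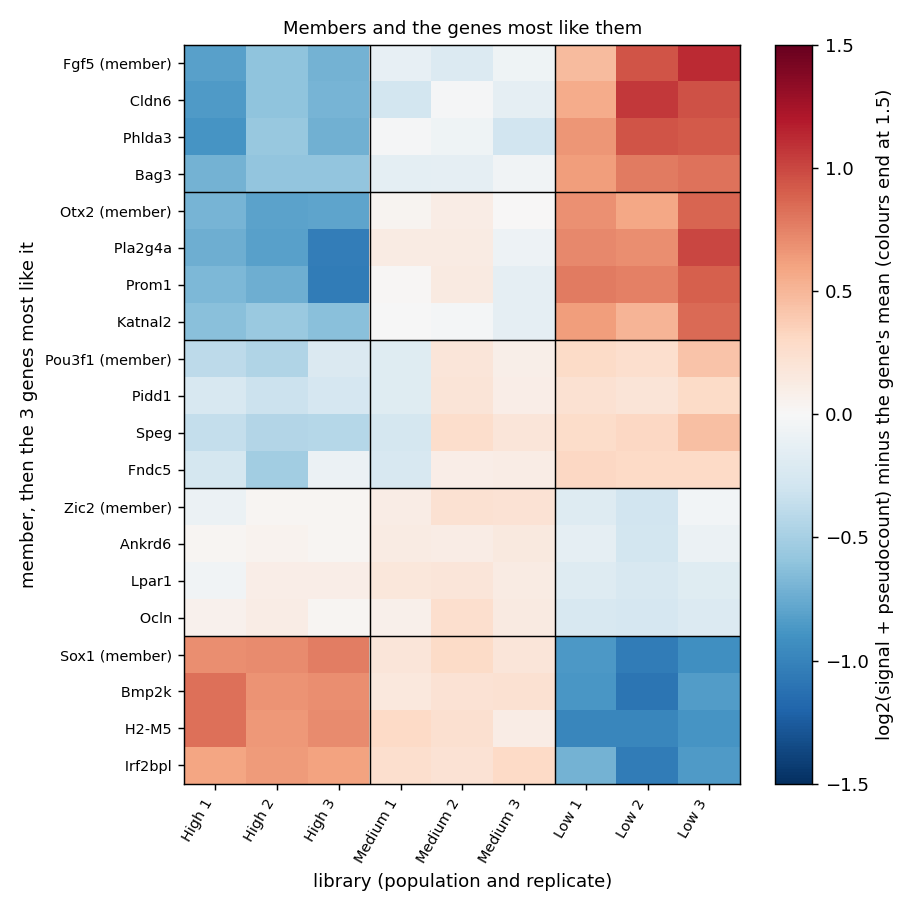
Each row is a gene and each column a library of the High, Medium and Low populations; colour gives log2(signal + pseudocount) minus the gene's own mean, with the scale ending at 1.5 either way. Each member is followed by the 3 genes most like it. The rows of Fgf5 and Otx2 run from blue in High to red in Low, those of Sox1 run the other way, and those of Zic2 are palest, with Medium the reddest.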

How the data were processed

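RNA was sequenced from 9 libraries of sorted mouse ES cells, grouped by the labels. Per the submitters' processing notes, RSEM 1.17, limma, cutadapt and Picard were used, in roles those notes do not state. Neither build, annotation nor strandedness of the counting is named there. The deposited table holds the authors' signal per gene and library, and 100% of these values were whole multiples of 1 read within 0.001 read; column totals were 953055 to 1026948. The 85 genes without a name held 1.71% to 2.53% of the signal and stayed in the tests.

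Differences were tested by limma 3.58.1 (R 4.3.3) on log2(signal + 1 CPM of the library's total) with trended variances, all 9 libraries and population as the only term. Genes had to reach 1 CPM in 3 libraries, which kept all 13499 genes and all members. P-values were Benjamini-Hochberg adjusted over all genes, with a threshold of 0.05. Folds are ratios of mean signal. edgeR 4.0.16 and DESeq2 1.42.0 were run on the recovered reads as alternatives, beside other pseudocounts, filters, scalings, a length correction, a replicate block and leaving out libraries. Positions and lengths are from GENCODE M21 (GRCm38), matched by identifier for 99.36% of genes.

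Libraries of High and Low with the same number deviated together from the means of their groups (r of 0.53, 0.26 and 0.18), so they were treated as pairs in a fit with the number as replicate block, although High replicate 3 with Low replicate 2 reached 0.31 as well. That fit called 5239 genes between High and Low, the one without it 3832, and the block changed no member's call there. Replicates differed by more than counting noise (chi-square per degree of freedom 2.37 to 57.0), so none was counted as a duplicate.

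The members, gene lists and tests were chosen with earlier results of these data known. Besides members and their families, genes were named by rule: up to 4 called genes with the largest fold change per list, and the 3 most alike per member. Pou5f1 was added as a check of the cells. Of the lists of ES cells and other cell types, counts and summed signal are given, and single genes only where they carry a sum or go against it. 1 further gene is not reported here. The fit was tested on simulated data.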

Additional observations from a re-analysis of the deposited data

How the results depend on the processing

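For High against Low, the calls of Fgf5, Otx2, Pou3f1 and Sox1 held under all 22 alternatives, with log2 fold changes of −1.94 to −1.02, −1.60 to −1.21, −0.74 to −0.63 and 1.37 to 1.80. Those of Fgf5, Otx2 and Sox1 for Medium against Low did too. Zic2 passed for High against Low with the length correction (adjusted p 0.046, and 0.0355 with the replicate block added). Its call for Medium against Low was lost with only those 2 populations fitted (0.0888), and ran from 0.0182 to 0.109 with single libraries left out. Pou3f1 passed for Medium against Low with the replicate block (0.0471) and with block and length correction (0.03). Sox1 passed for High against Medium with a pseudocount of 4 CPM (0.045), a filter of 4 CPM (0.0492), edgeR (0.0485), DESeq2 (0.00313), no variance trend (0.0466), only 2 populations (0.0305), the replicate block (0.0408), the length correction (0.0136) and both (0.0125), and ran from 0.0282 to 0.222 with single libraries left out. Otx2 in that comparison ran from 0.00987 to 0.0882. The departure of Pou3f1 in Medium from the midpoint of the other populations changed sign in 1 leave-out, without Medium replicate 2 (adjusted p 0.841 to 0.987 over the leave-outs). The cause was not tested.

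The number of genes called for High against Low was 6027 with length correction and replicate block, and 2266 to 5757 with single libraries left out: 2266 without Low replicate 3, 2498 without High replicate 2, 2550 without High replicate 1 and 5757 without Low replicate 1. Rescaling the libraries to equal totals gave 1481 higher and 2213 lower genes. For High against Medium it was 260 with DESeq2, 84 without the variance trend, 172 with only 2 populations, 203 with the replicate block, 320 with the length correction and 504 with both, and 11 to 208 in the leave-outs. For Medium against Low it was 669 with only 2 populations, 3656 with the replicate block, 2736 with the length correction and 3810 with both, and 497 to 5060 in the leave-outs. Same-numbered libraries correlated at 0.35, 0.17 and −0.04 for High and Medium and at 0.24, 0.43 and −0.11 for Medium and Low. Whether the shared number marks pairs in these comparisons cannot be told from such mixed values. The replicate block was fitted over all 3 populations. The departure of Medium called 70 genes without Low replicate 1. DESeq2 gave no adjusted p for that departure of Fgf5, and the departure cannot be had from 2 populations.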
